A study of Mus musculus with 4 samples.

Results

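The cells described here are epithelial cells of the E13–13.5 mouse thymus that carried transcripts of both Krt5 and Krt17, the keratins that mark medullary and basal epithelium. They were picked by transcript counts in each cell, where a count is a unique molecular identifier (UMI), that is, 1 captured RNA molecule. A cell entered if it had at least 200 genes, at most 10% mitochondrial UMIs, at least 2 Epcam UMIs, at most 1 Ptprc UMI, no Pdgfra or Gcm2 UMI, at least 5 Krt5 UMIs and at least 2 Krt17 UMIs. These limits left 1416 Krt5+Krt17+ thymic epithelial cells (TECs) among 7470 epithelial cells that passed every limit but the last pair, and among 29510 cells that passed the filters on genes and mitochondrial UMIs. The other 6054 epithelial cells served as the comparison, and they still held some TECs with low Krt5. Because Epcam, Ptprc, Pdgfra, Gcm2, Krt5 and Krt17 set the choice, none of those 6 genes was tested, and their levels are given as a description only.

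The study used scRNA Seq to ask what minoxidil and prostaglandin E2 (PGE2), given to pregnant mice, do to the small thymus of Tbx1neo2/neo2 embryos, a model of the human 22q11.2 deletion syndrome in which a neomycin cassette in intron 5 lowers expression of the transcription factor Tbx1. All embryos came from Tbx1+/neo2 intercrosses, and the dams were injected intraperitoneally at E8, E9 and E10. There were 4 groups. The Tbx1+/+ carrier and Tbx1neo2/neo2 carrier groups received 5% ethanol in PBS, the Tbx1neo2/neo2 minoxidil group 200 µl of minoxidil at 0.55 mg/ml, and the Tbx1neo2/neo2 PGE2 group 90 µl of PGE2 at 3.6 ng/µl. Each group was 1 library. Lobes were pooled for the hypoplastic tissues, and the number of embryos per library is not given in the sources used here. Differences between groups therefore have no replicate check. They are given as UMIs scaled to a library total of 1e6 (CPM) summed over the Krt5+Krt17+ TECs of a library, with exact Poisson 95% intervals that cover counting error only. Where libraries are listed without their names, the order is Tbx1+/+ carrier, Tbx1neo2/neo2 carrier, Tbx1neo2/neo2 minoxidil and Tbx1neo2/neo2 PGE2.

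The thymic epithelium forms from pharyngeal pouch endoderm and divides into a cortex and a medulla. Cortical TECs make the chemokine and protease set that draws in progenitors and selects thymocytes on self-peptides, while medullary TECs display tissue-restricted antigens under Aire and Fezf2 and purge self-reactive T cells. Early embryonic TECs can give rise to both lineages, and cells that carry transcripts of both have been called bipotent. Krt5 pairs with Krt14 in the basal layer of stratified epithelia, and Krt17 is an intermediate filament of appendages and of stressed epidermis.

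The numbers of Krt5+Krt17+ TECs were 763, 164, 217 and 272. In the Tbx1+/+ carrier library they were 18.5% (exact binomial 95% interval 17.4–19.8) of the epithelial cells. The Tbx1neo2/neo2 carrier library had 14.6% (12.6–16.8), the lowest share at these limits. The minoxidil library had 22.3% (19.7–25.1) and the PGE2 library 21.6% (19.4–24.0), and both intervals lay above that of the Tbx1neo2/neo2 carrier. These binomial intervals cover the sampling of cells within 1 library only. They do not measure the spread between embryos or between libraries of a condition. Limits on raw UMIs depend on depth, which differed. A Krt5+Krt17+ TEC held a median of 26944, 27142, 52751 and 46547.5 UMIs, so the 2 libraries of drug-treated embryos were the deeper ones. For a second count, each cell with at least 10000 UMIs was thinned at random to that number and shallower cells were dropped. This left 3349 of 4117, 1071 of 1121, 936 of 973 and 1210 of 1259 epithelial cells. With the limits also lowered to 2 Krt5 and 1 Krt17 UMIs, the shares were 21.5% (20.1–22.9), 15.03% (12.9–17.3), 18.5% (16.05–21.1) and 19.3% (17.1–21.6). With these changes together the Tbx1neo2/neo2 carrier library again had the lowest share. The shares of the drug libraries now lay below that of the Tbx1+/+ carrier, and their intervals overlapped that of the Tbx1neo2/neo2 carrier. Dropping the shallower cells alone, under the original limits, gave 20.8%, 15.2%, 22.8% and 22.1%, with the drug libraries still highest. The part of depth apart from the lowered limits was not tested. Among all cells that passed the filters, the shares were 6.65% (6.201–7.12), 1.54% (1.31–1.79), 6.78% (5.93–7.71) and 6.55% (5.82–7.35). Among the few epithelial cells with under 3 G2 and M phase genes, the order of the carriers turned. The shares were 30.5% of 364 cells in the Tbx1+/+ carrier, 32.1% of 106 in the Tbx1neo2/neo2 carrier, 36.4% of 44 with minoxidil and 37.3% of 59 with PGE2. These genes were counted on raw UMIs, so this subset also depends on depth. Its Krt5+Krt17+ TECs held a median of 20301, 20083.5, 32922 and 31935.5 UMIs. The shares of all cells also move with how many mesenchymal and blood cells each library held.

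**Figure D1:**
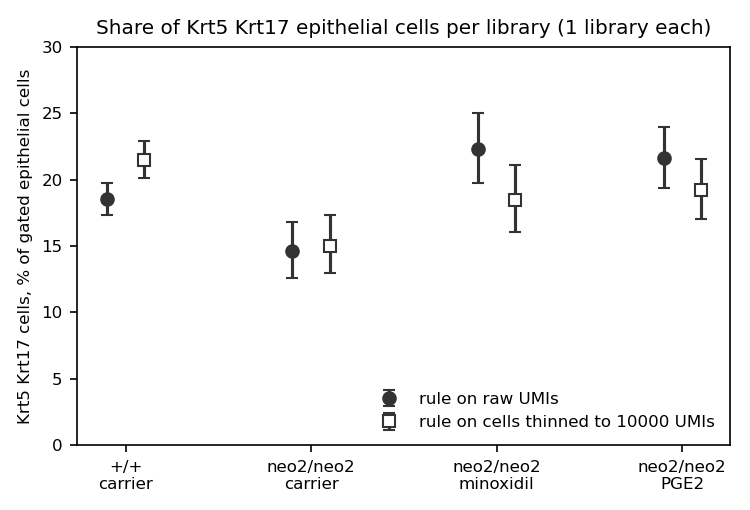
Share of Krt5+Krt17+ TECs among epithelial cells (vertical axis, percent) in the 4 libraries, with filled circles for the limits on raw UMIs, open squares for cells thinned to 10000 UMIs, and bars for exact binomial 95% intervals. The Tbx1neo2/neo2 carrier library is lowest on both scales, at 14.6% and 15.03%.

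The libraries differed in further ways that bear on what follows. Summed over the Krt5+Krt17+ TECs, the UMIs numbered 24900839, 5947595, 15216250 and 14455333, so the Tbx1neo2/neo2 carrier, which enters every comparison between libraries, was the least precise. Median mitochondrial shares were 4.91%, 5.59%, 4.63% and 4.97%. A high doublet score, above the 95th percentile of its library, was given to 1.44%, 1.83%, 11.98% and 8.09% of the Krt5+Krt17+ TECs and to 1.49%, 4.91%, 1.46% and 1.72% of the other epithelial cells; these cells were kept. No cell barcode was shared between the Krt5+Krt17+ TECs of any pair of libraries. Xist, the RNA of the inactive X chromosome, was at 146, 311, 613 and 0.138 CPM, and the Y-linked Ddx3y at 30.9, 28.9, 0.0657 and 41.7 CPM. The minoxidil library thus held almost only transcripts of female embryos and the PGE2 library almost only those of male embryos, while both carrier libraries were mixed, so embryo sex and treatment cannot be told apart. Tbx1 itself was at 2.41, 1.01, 2.37 and 0.55 CPM in the Krt5+Krt17+ TECs. There the Tbx1neo2/neo2 carrier differed from the Tbx1+/+ carrier by −1.26 on the log2 scale, with an interval from −2.76 to −0.05, under the rule for a called difference. The carriers were in the other order elsewhere, with Tbx1 at 1.13, 1.23, 1.26 and 0.66 CPM in the other epithelial cells. In cells with at least 2 Ptprc UMIs and no Epcam UMI it was at 0.51, 1.25, 0.59 and 0.28 CPM. At such low counts a library's genotype cannot be checked from Tbx1.

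The levels of the keratins used for the choice, whose gap the limits themselves set, are given as a description. Krt5 was at 3820, 2978, 3821 and 3476 CPM, against 112, 73.4, 53.0 and 71.2 CPM in the other epithelial cells. Krt17 was at 2422, 1658, 1864 and 1807 CPM, against 34.5, 29.6, 25.3 and 41.2 CPM. The median Krt5 count per cell was 90, 77, 157 and 114 UMIs. Exactly 5 Krt5 UMIs were found in 52, 9, 7 and 4 of them, and 53, 10, 8 and 10 cells with 4 Krt5 UMIs lay just outside. Exactly 2 Krt17 UMIs were found in 92, 13, 13 and 14, and 96, 24, 16 and 37 cells with 1 Krt17 UMI lay just outside, so there was no gap at either limit. A further 140, 52, 49 and 45 cells had at least 5 Krt5 UMIs and no Krt17 UMI.

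The other markers by which these cells were recognised had been picked with results of these data known, so their values carry no test. Krtdap, a secreted peptide of differentiating keratinocytes, was at 707, 545, 771 and 555 CPM, against at most 48.7 CPM in the other epithelial cells of any library. S100a14, a calcium-binding protein of epithelia, was at 367, 345, 373 and 383 CPM, against 27.7, 23.5, 26.0 and 31.4 CPM. Sfn encodes the epithelial 14-3-3 sigma protein. It was at 1467, 1359, 1518 and 1393 CPM, against 533, 529, 604 and 653 CPM, so it was a marker by degree and was made by the rest of the epithelium too. Clu, a secreted chaperone, was at 400.5, 347, 416 and 383 CPM, against at most 45.9 CPM. Perp, a desmosomal protein and target of p63, was at 540, 415, 474 and 429 CPM, against at most 104 CPM. The chemokine Cxcl10 was the most uneven of these markers, at 194, 213, 593 and 699 CPM, against 11.9, 5.37, 15.5 and 32.4 CPM. Cells with at least 2 Ptprc UMIs and no Epcam UMI, that is, blood cells, had 36.3, 34.3, 32.3 and 30.9 CPM of Cxcl10, so the level in the other epithelium was no higher than in those cells except in the PGE2 library. In every library each of these 6 markers was higher in the Krt5+Krt17+ TECs than in the other epithelium of any library.

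Several of the genes that set the cells apart are neighbours in the genome (GRCm38, GENCODE vM21). Dmkn (chr7:30763756-30781063) and Krtdap (chr7:30787896-30791097), which belong to a cluster of secreted epidermal proteins, lie 6832 bases apart. S100a14 (chr3:90526856-90528837) and S100a16 (chr3:90537254-90543151) lie 8416 bases apart, and Mt2 (chr8:94172664-94173568) and Mt1 (chr8:94179082-94180327) lie 5513 bases apart. The stretches from 250 to 51 bases before the RefSeq start of 3 genes are shown, because Dmkn and Krtdap are neighbours with a like pattern and Cxcl10 is the marker that differed most between libraries. Capitals mark matches to letters of the kind bound by AP-1 (TGANTCA), by nuclear factor kappa B (GGG and TTCC parted by any 3 bases) and by interferon-regulated factors (GAAA and GAAA parted by any 2 bases), searched on both strands and chosen after the values were seen.
Dmkn, chr7:30763506-30763705, plus strand: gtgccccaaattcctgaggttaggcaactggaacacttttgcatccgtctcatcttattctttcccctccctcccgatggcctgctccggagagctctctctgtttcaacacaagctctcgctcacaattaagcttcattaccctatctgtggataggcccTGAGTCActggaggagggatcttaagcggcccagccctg
Krtdap, chr7:30787655-30787854, plus strand: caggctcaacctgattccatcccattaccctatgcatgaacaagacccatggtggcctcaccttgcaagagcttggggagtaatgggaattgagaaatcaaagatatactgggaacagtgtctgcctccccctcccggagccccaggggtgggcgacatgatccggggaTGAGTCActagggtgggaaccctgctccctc
Cxcl10, chr5:92348940-92349139, minus strand: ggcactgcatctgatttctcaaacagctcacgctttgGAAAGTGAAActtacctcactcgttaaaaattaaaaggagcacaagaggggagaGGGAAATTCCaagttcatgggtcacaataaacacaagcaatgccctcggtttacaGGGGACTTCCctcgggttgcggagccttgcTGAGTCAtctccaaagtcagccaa
The AP-1 letters began 89 bases before the start of Dmkn, 81 before that of Krtdap and 74 before that of Cxcl10, and the Cxcl10 stretch also held 2 kappa B matches and 1 interferon match. Of 32851 RefSeq windows of 300 bases around a start, 7.81% held the AP-1 letters, 5.56% the kappa B letters and 3.44% the interferon letters. Counted per gene, 11.6% of the 938 genes with a window that were higher in Krt5+Krt17+ TECs held AP-1 letters, 7.78% of the 334 that were lower, and 6.07% of all 10544 tested genes with a window. For kappa B the shares were 11.7%, 4.49% and 7.44%, and for the interferon letters 5.65%, 2.99% and 3.6%. A match is a description of letters and not of binding.

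To ask how the Krt5+Krt17+ TECs differ from the rest of the thymic epithelium, their summed UMIs were set against those of the other epithelial cells of the same library, giving 8 sums in 4 pairs, by edgeR's quasi-likelihood test with the library as a block and Benjamini-Hochberg adjustment over all genes. A gene was called at an adjusted p under 0.05 and at least a 2-fold change. The 4 pairs were 4 different conditions, so p-values measure only the spread between these 4 libraries. Of 14255 genes tested, 1322 (9.27%) were higher in the Krt5+Krt17+ TECs and 451 (3.16%) were lower, and the median log2 fold change over all of them was 0.00.

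The genes with the largest rises, among those at or above 50 CPM in every library, included products of barrier epithelium. Dmkn, the secreted epidermal protein dermokine, was at 150, 89.4, 118 and 100 CPM, against 1.91, 1.78, 1.11 and 1.34 CPM in the other epithelial cells. It rose by 6.28 ± 0.11 on the log2 scale (SE, n = 4 pairs, edgeR adjusted p = 1e-08). Aldh3b2, an aldehyde dehydrogenase of lipid metabolism, was at 65.7, 51.8, 55.4 and 56.2 CPM, against at most 1.27 CPM, a rise of 6.15 ± 0.14 (edgeR adjusted p = 2e-08). Pkp1, the plakophilin of suprabasal desmosomes, was at 90.8, 85.4, 93.1 and 73.3 CPM against 5.98, 5.01, 4.81 and 4.51 CPM, and its rise of 4.08 ± 0.06 was among the most even over the 4 pairs (edgeR adjusted p = 5e-09). The sums of these 3 genes were higher in the Krt5+Krt17+ TECs of every library, as the rule for naming them required. After thinning, Dmkn had a UMI in 36.9%, 34.4%, 30.5% and 32.6% of Krt5+Krt17+ TECs. In the other epithelial cells it was found in 0.678%, 1.32%, 1.24% and 0.742%. Cells without a Dmkn UMI were thus found in both populations.

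Other large rises were in genes of varied function. Ccl5, a chemokine that draws in T cells, was at 61.6, 65.2, 104 and 105 CPM, against 2.56, 0.182, 0.362 and 0.460 CPM (log2 rise 6.14 ± 0.44, edgeR adjusted p = 7.21e-06). It had a UMI in 10.5%, 17.2%, 18.8% and 20.2% of thinned Krt5+Krt17+ TECs and in 8.56%, 7.05%, 7.75% and 14.3% of Ptprc+ cells, and 1 cell held from 15.7% to 23.5% of its UMIs in the Krt5+Krt17+ TECs of each library. The cytoplasmic protease inhibitor Serpinb1a was at 82.4, 88.6, 106 and 84.6 CPM, against at most 5.35 CPM (log2 rise 5.17 ± 0.36, edgeR adjusted p = 6.04e-06). The metallothioneins, which bind zinc and copper, were high as a pair. Mt1 was at 469, 408, 794 and 416 CPM against 29.8, 27.0, 16.9 and 19.5 CPM, a rise of 4.47 ± 0.25, and Mt2 rose by 4.28 ± 0.21 (edgeR adjusted p = 1.64e-06 and 7.78e-07). Reads of these 2 similar genes may be split between them. Both were highest in the minoxidil library, at 794 CPM for Mt1 and 154 CPM for Mt2. Rab25, a small GTPase of apical recycling, rose by 4.58 ± 0.12 and the homeodomain cofactor Hopx by 4.38 ± 0.12. S100a16 rose by 3.54 ± 0.10 and the lysosomal protease Ctsh by 3.43 ± 0.08 (edgeR adjusted p from 2.6e-08 to 6.2e-08 for Rab25, Hopx, S100a16 and Ctsh). A rise in 4 of 4 libraries was a condition for naming these genes.

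Transcripts that were lower in the Krt5+Krt17+ TECs remained well detected in them. Six2, a homeobox factor known from kidney progenitors, was at 29.7, 27.7, 33.7 and 31.4 CPM against 118, 114.5, 171 and 114 CPM, a decrease of −2.05 ± 0.07 on the log2 scale (edgeR adjusted p = 2.02e-07). Hpgd, the enzyme that inactivates prostaglandins such as PGE2, was at 83.3, 62.5, 66.3 and 70.7 CPM against 208, 191, 196 and 199 CPM (−1.47 ± 0.05, edgeR adjusted p = 1.47e-07). It was lower by a similar amount in all 4 libraries, the PGE2 library included. Cdkn1c, an imprinted inhibitor of the cell cycle, was at 127, 100, 50.998 and 67.7 CPM against 222, 263, 171 and 158.5 CPM (−1.25 ± 0.12, edgeR adjusted p = 4.98e-05). Enho, which encodes the peptide adropin, was lower by −1.93 ± 0.06, the carboxypeptidase gene Cpm by −1.88 ± 0.09, the matrix protein gene Mgp by −1.43 ± 0.07, the galectin gene Lgals1 by −1.30 ± 0.15, the lipoprotein gene Apoe by −1.29 ± 0.10, the kinase gene Taok3 by −1.27 ± 0.06 and the dynactin gene Dctn1 by −1.16 ± 0.03. The calls of Mgp and Apoe were lost, at −0.77 and −0.93, when cells with 3 or more G2 and M phase genes were left out of both populations.

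**Figure D2:**
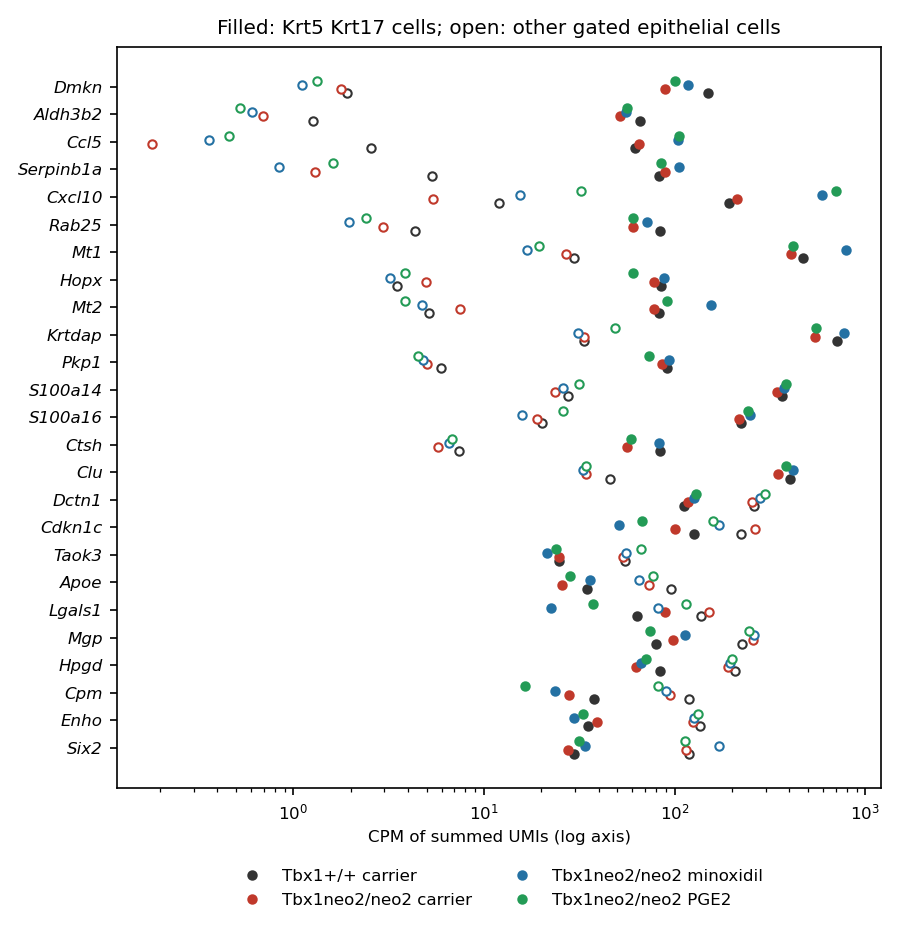
CPM of summed UMIs on a log axis for the 25 genes named by the fixed rule in the test against the other epithelial cells, with filled points for Krt5+Krt17+ TECs and open points for the other epithelial cells, 1 colour per library. Krtdap, Cxcl10, S100a14 and Clu among them are markers picked with results known, whose values carry no test. As the rule required, filled points lie to the right of the open points of the same library for the 15 genes that were higher. They lie to the left for the 10 that were lower. Dmkn was at 150 against 1.91 CPM in the Tbx1+/+ carrier.

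Structural genes of stratified epithelium were higher as a group. Beyond Krt5 and Krt17, 9 of 11 tested keratins were higher and 0 lower, with a median log2 fold change of 1.63, beside 9.27% of all tested genes higher. Krt6a, a keratin of activated keratinocytes, was at 38.1, 21.4, 36.9 and 23.6 CPM against at most 0.407 CPM, a rise of 6.97. Krt14, the partner of Krt5, rose by 2.93, from 7.52, 13.6, 7.75 and 12.4 CPM to 45.5, 76.0, 83.5 and 106 CPM. The counting could have split reads among the closely related Krt14, Krt16 and Krt17. Krt8 and Krt18, the pair of simple epithelium, stayed abundant: Krt18 rose by 1.21, with 3505, 3080, 3553 and 3338 CPM against 1609, 1199, 1502 and 1629 CPM, and Krt8 had a log2 difference of 0.85, under the 2-fold limit. The cells therefore held transcripts of basal and simple keratins at once. Of 30 genes of stratified epithelium and desmosomes, 23 were higher and 0 lower, with a median of 1.90, a count that holds 4 of the markers picked with results known, Krtdap, S100a14, Sfn and Perp. They included the desmosomal cadherin Dsg3 (4.48), the surface proteins Lypd3 (4.16) and Ly6d (4.06), the plakins Ppl (3.20), Evpl (2.75) and Dsp (1.498), and the adherens cadherin Cdh1 (1.01). Trp63, the master regulator of stratified epithelium, was not among them: it was at 85.5, 94.8, 95.4 and 91.8 CPM against 84.1, 90.4, 86.0 and 76.8 CPM, a log2 difference of 0.14. Hemidesmosome and basement membrane genes were mostly not called, with 2 of 15 higher, Lad1 among them, and a median of 0.14. Of 17 tight junction genes 13 were higher, with a median of 1.69. Cldn3 was at 75.7, 37.2, 44.0 and 34.7 CPM against at most 6.32 CPM, a log2 rise of 3.85, and Cldn4 was at 46.4, 19.8, 54.2 and 27.5 CPM against at most 6.72 CPM, a rise of 2.60. This pair of claudins marks the earliest medullary precursors.

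Medullary genes were higher in the same cells. Of 18 medullary TEC genes tested, 14 were higher and 1 lower, with a median log2 fold change of 2.29, beside 9.27% of all tested genes higher and 3.16% lower. Fezf2, a driver of tissue-restricted antigens, was at 2.85, 7.06, 7.89 and 19.0 CPM, against at most 0.109 CPM, a rise of 7.45. Aire was at 1.33, 2.02, 3.35 and 4.01 CPM against at most 0.185 CPM, a rise of 4.04. The receptors through which lymphoid cells promote medullary growth were well measured. Tnfrsf11a, the receptor RANK, was at 18.8, 28.9, 30.2 and 29.3 CPM and rose by 4.68, and Cd40, at 21.7, 26.9, 33.5 and 24.1 CPM, rose by 5.34. Spib, an Ets factor induced downstream of RANK, was at 22.4, 23.5, 27.7 and 26.9 CPM against at most 0.416 CPM, a rise of 6.38. Relb, the subunit of the noncanonical kappa B pathway that medullary TECs require, was at 69.2, 70.1, 86.4 and 91.9 CPM against 21.0, 15.8, 19.9 and 23.6 CPM (1.99). The chemokine Ccl21a, which draws in lymphocytes and has near-identical copies in the genome among which reads may be split, was at 307, 575, 401 and 875 CPM against 38.2, 25.2, 21.5 and 66.4 CPM (3.85). Trpm5, a tuft cell channel, was the member that was lower (−1.20).

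Cortical genes were not lost in the sum over the cells. Of 14 cortical TEC genes, 1 was higher, 2 were lower and 11 were not called, with a median of −0.30. Over all tested genes 9.27% were higher and 3.16% lower, so 1 of 14 higher was near the share of all genes. An edgeR adjusted p under 0.05 was found for 11 of the 14, most of them under the 2-fold limit. Psmb11, the catalytic subunit of the cortical thymoproteasome, was at 158, 153, 142.5 and 187.5 CPM against 202, 186, 202 and 255 CPM, a log2 difference of −0.38 that was under the 2-fold limit. Prss16, a protease for class II peptides, was at 383, 350, 371 and 421 CPM against 439, 369, 402 and 452 CPM, and the chemokine Ccl25 at 590, 510, 543 and 568 CPM against 645, 480, 563 and 580 CPM. The sum over the cells therefore contained cortical transcripts close to the level of the other epithelium. The 2 that were lower were the Notch ligand Dll4, at 9.44, 7.90, 10.3 and 9.13 CPM against 23.9, 19.1, 22.2 and 20.4 CPM (−1.20), and the factor Scx (−1.96). Tbata, a protein known to restrain TEC proliferation, was the member that was higher (2.14). In the sum over these cells, raised medullary genes thus stood beside cortical genes that were mostly not called. That sum joined unlike cells and does not show that each met the names medullary-like and bipotent, under which they were singled out. Among all thinned epithelial cells, Psmb11 was at 62.8, 68.5, 65.4 and 57.9 CPM with at least 32 Krt5 UMIs. With 0 Krt5 UMIs it was at 236, 209, 248 and 292 CPM.

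Among 26 transcription factors of TECs, 7 were higher and 0 lower, with a median of 0.21, beside 9.27% of all tested genes higher and 3.16% lower. The factors that were higher were those of barrier epithelia, Ehf (5.27), Elf5 (3.76), Grhl3 (2.90), Grhl1 (2.52), Elf3 (1.95) and Klf5 (1.69), together with Mycn (1.54). Foxn1, which every TEC needs to mature, was at 117, 131, 141 and 145 CPM against 102.5, 108, 98.1 and 105.5 CPM (0.38), and Pax1 and Pax9 of the pharyngeal pouch had log2 differences of −0.03 and −0.18. None of those 3 was called. Among 15 genes listed for TEC progenitors, 5 were higher, Cldn3, Cldn4, Clu, Krt19 and Plet1, with a median of 0.74, and all of these but Plet1 were also on other lists or among the markers.

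Many antigen presentation and inflammatory genes were higher too. Of 9 MHC class II genes, 6 were higher, with a median of 1.95, beside 9.27% of all tested genes higher and 3.16% lower. Cd74, the invariant chain, was at 626, 818, 1096 and 1645 CPM against 196, 183, 225 and 345 CPM (2.11), H2-Eb1 rose by 2.66 and H2-Aa by 2.14. Of 14 genes of MHC class I and peptide loading, 8 were higher with a median of 1.20, H2-K1 by 2.40 and B2m by 1.42. Interferon response genes were higher in 17 of 29 cases, with a median of 1.10, a count that holds the marker Cxcl10. The largest was Cxcl9 (6.47), the chemokine of the same receptor as Cxcl10. Of 21 genes of the kappa B pathway 10 were higher, with a median of 0.95, among them its inhibitors Tnfaip3 (3.02) and Nfkbia (2.12). Immediate early and stress genes were higher in 13 of 29 cases, the marker Clu among them, with a median of 0.94. Blood cells also make MHC and chemokine transcripts. Both populations were limited to cells with at most 1 Ptprc UMI, and the part of blood RNA in these values was not tested. Of the blood markers, 0 of 14 hematopoietic and 0 of 9 macrophage genes were higher, while 6 and 4 were lower. The hematopoietic list summed to 102, 21.5, 27.3 and 53.1 CPM in Krt5+Krt17+ TECs against 216, 132, 43.8 and 107 CPM in the other epithelial cells.

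Notch genes went both ways. Of 18 tested, 6 were higher and 3 lower, with a median of 0.54, beside 9.27% of all tested genes higher and 3.16% lower. The receptor Notch1 was at 150, 141, 138 and 103 CPM against 35.1, 37.1, 27.0 and 36.5 CPM (1.99), the receptor Notch3 rose by 1.67, the target gene Heyl by 1.95, the feedback inhibitor Nrarp by 1.48 and the ligand Jag1 by 1.10. The ligands Jag2 (−1.03) and Dll4 (−1.20) and the target Hes6 (−1.13) were lower. Both named receptors were thus higher, while the ligands were split. Of 30 G2 and M phase genes 0 were past the 2-fold limit in either direction, with a median of −0.31, though 26 had an edgeR adjusted p under 0.05. After thinning to 10000 UMIs, at least 3 of these genes were found in 70.0%, 73.0%, 74.2% and 79.0% of Krt5+Krt17+ TECs, against 83.8%, 86.6%, 86.6% and 90.2% of the other epithelial cells. Of 30 S phase genes 1 was lower (Ccne1, −1.05), a count near the share of all genes. Their median was −0.29, and 25 had an edgeR adjusted p under 0.05.

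**Figure D3:**
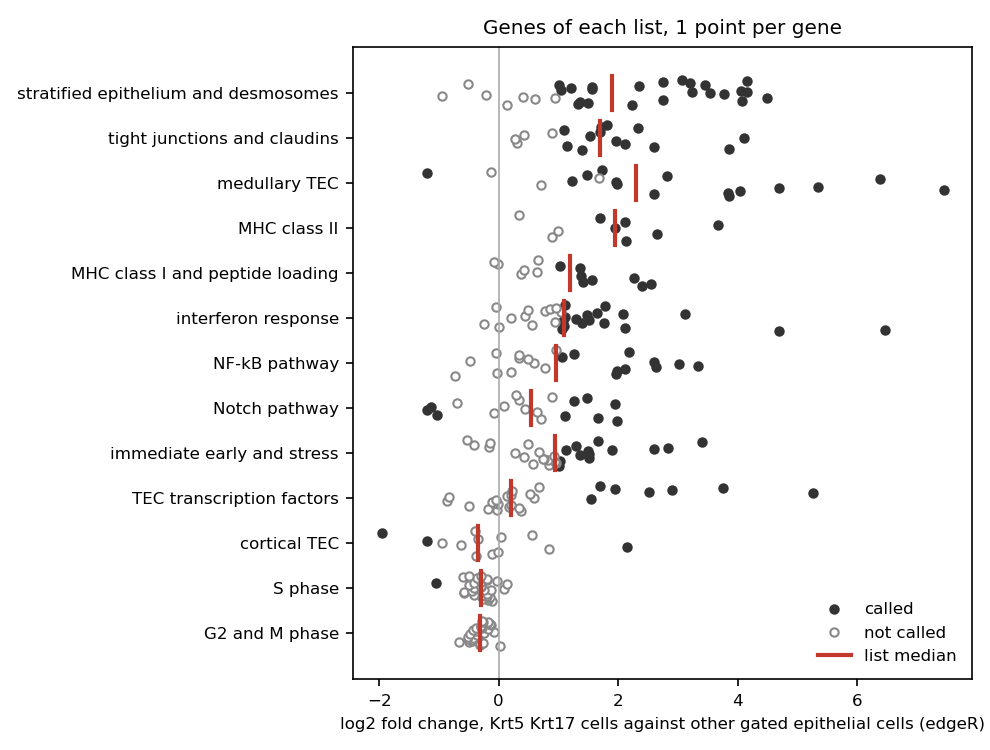
Log2 fold change of each gene (points) in Krt5+Krt17+ TECs against the other epithelial cells, by gene list, with filled points for called genes, open points for genes not called and a bar at each list's median. The medians are 1.90 for stratified epithelium, 2.29 for medullary TEC and −0.30 for cortical TEC genes.

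Some markers of non-epithelial cells were also higher and are given for the whole lists, beside 9.27% of all tested genes higher and 3.16% lower. Of 8 pericyte and smooth muscle genes 3 were higher, Rgs5 (3.49), Myh11 (2.95) and Notch3, with a median of −0.31. Of 13 mesenchymal genes 1 was higher, the fibrillin Fbn1 (1.88), with a median of −0.58, a count near the share of all genes. None of 9 endothelial genes was called. Erythroid genes were lower in 3 of 11 cases; their sum was 1913, 3357, 118 and 2313 CPM against 2049, 3902, 1126 and 3353 CPM, with the embryonic globin Hbb-y at 1029, 1306, 20.2 and 665 CPM in the Krt5+Krt17+ TECs. The parathyroid hormone gene Pth, at 77.9, 0, 0 and 0.0692 CPM, was found almost only in the Tbx1+/+ carrier library. Genes of pharyngeal and skin surface were higher in 4 of 6 cases, Grhl3, Lor, Sox21 and Krt1, and that list summed to 81.4, 69.6, 66.7 and 58.7 CPM in the Krt5+Krt17+ TECs, with Krt10 its most abundant gene. The part of these transcripts in the results was not tested.

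Whether medullary and cortical transcripts lay in the same cells was examined after thinning each cell to 10000 UMIs, which left 696, 163, 213 and 267 Krt5+Krt17+ TECs and removed 67, 1, 4 and 5 shallower ones. At least 1 UMI of Psmb11, Prss16, Ccl25, Ly75 or Dll4 was found in 84.1%, 89.6%, 85.9% and 83.9% of them, and at least 1 UMI of Cldn3, Cldn4, Ccl21a, Tnfrsf11a or Relb in 82.3%, 80.4%, 78.4% and 83.9%. Both kinds of transcript occurred together in 67.4% (63.8–70.9), 71.2% (63.6–78.0), 65.3% (58.5–71.6) and 70.0% (64.2–75.5). The intervals of the 4 libraries overlapped, and they cover the sampling of cells within a library only. Each kind alone was found in most of these cells, so cells with both would be common even if the kinds were unrelated. Whether they met more often than that was not tested. In the other epithelial cells the share with both was 30.3%, 21.7%, 26.6% and 29.4%. There the cortical kind was found in 91.5%, 88.8%, 92.5% and 91.2%, and the medullary kind in 33.9%, 25.1%, 28.8% and 32.1%. In Ptprc+ Epcam- cells, a measure of free RNA in the droplets, the share with both was 2.68%, 1.86%, 1.11% and 2.39%. Before thinning, those Ptprc+ cells had median depths of 34677, 29363, 60383.5 and 46196 UMIs, close to those of the Krt5+Krt17+ TECs. Without thinning the shares with both were 87.2%, 92.1%, 90.8% and 89.3%.

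The Krt5+Krt17+ TECs were not uniform in their own markers. After thinning, Krtdap had at least 1 UMI in 58.5%, 50.3%, 54.9% and 50.9% of them, against 10.8%, 12.4%, 12.7% and 18.7% of the other epithelial cells and at most 1.30% of Ptprc+ cells. Its median was 1 UMI per cell in every library, while the 90th percentile was 21.5, 15, 18 and 16 UMIs, so a minority of cells carried most of the transcript. Cxcl10 had at least 1 UMI in 23.3%, 34.4%, 38.03% and 52.8%, against 5.79%, 3.53%, 8.86% and 7.96% of Ptprc+ cells. Cells with both Krtdap and Cxcl10 made up 16.5%, 22.7%, 22.1% and 27.0%, those with Krtdap alone 42.0%, 27.6%, 32.9% and 24.0%, and those with Cxcl10 alone 6.8%, 11.7%, 15.96% and 25.8%. In the PGE2 library Cxcl10 was therefore found in as many cells as Krtdap, and in the Tbx1+/+ carrier library in fewer. Krtdap and the cortical gene Psmb11 were found together in 15.1%, 16.6%, 18.3% and 17.98%. Aire was found in 1.01%, 2.45%, 3.76% and 2.62%, and Fezf2 in 0.862%, 4.91%, 4.23% and 8.99%, so cells with a UMI of either regulator of tissue-restricted antigens were few. Ccl21a was found in 42.4%, 49.1%, 40.4% and 46.4%.

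Sorting all thinned epithelial cells by their Krt5 count placed the Krt5+Krt17+ TECs along a range rather than in a block, which is a description, since Krt5 also chose the cells. In the Tbx1+/+ carrier library Psmb11 was at 236 CPM in cells with 0 Krt5 UMIs, reached 396 CPM at 4 to 7 and was at 62.8 CPM at 32 or more. Ccl25 followed the same course, from 751.5 CPM through 1299 CPM to 361.5 CPM, as did Krt8, from 1446 through 3277 to 2237 CPM. Krtdap took another course, from 11.5 CPM to 1121 CPM at the top, and Ccl21a went from 24.8 to 439 CPM. Six2 went from 122 to 6.12 CPM. The peak of Psmb11 at intermediate Krt5 was seen in every library, at 383 CPM for 2 to 3 UMIs in the Tbx1neo2/neo2 carrier, 359 CPM for 2 to 3 UMIs with minoxidil and 442 CPM for 4 to 7 UMIs with PGE2, and so was the drop at 32 or more UMIs, to 68.5, 65.4 and 57.9 CPM. The bin at the top held 52.7%, 42.9%, 49.3% and 45.3% of the Krt5+Krt17+ TECs. The near-equal level of Psmb11 in the summed cells thus joined cells of intermediate Krt5, in which it was highest, and cells of the highest Krt5, in which it was lowest. Ctsl, another gene of the cortical list, was lowest at 0 Krt5 UMIs in all 4 libraries, at 1441 CPM in the Tbx1+/+ carrier against 1895 CPM at 32 or more. Krtdap in the Tbx1neo2/neo2 carrier was higher at 16 to 31 Krt5 UMIs, at 984 CPM in 37 cells, than at 32 or more, at 686 CPM.

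**Figure D4:**
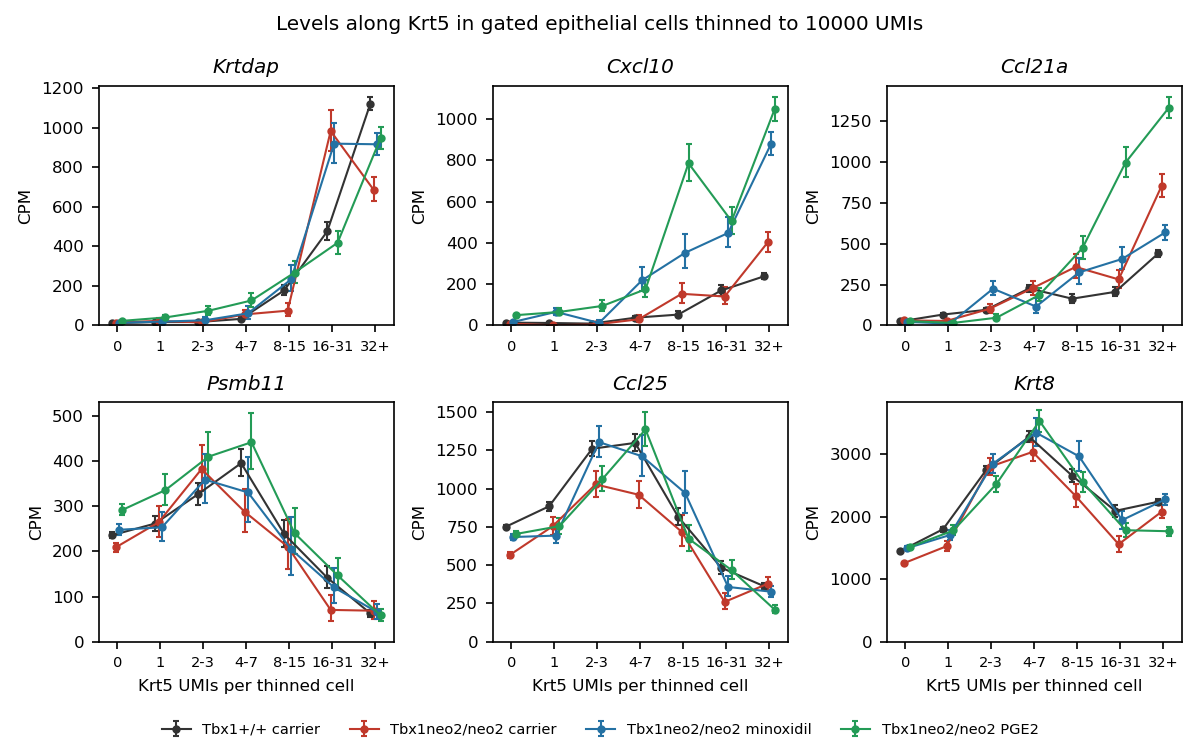
CPM (vertical axes) of 6 genes in epithelial cells grouped by their Krt5 count after thinning to 10000 UMIs (horizontal axes), 1 line per library, bars for Poisson 95% intervals. Krtdap, Cxcl10 and Ccl21a are highest in the groups of 16 or more Krt5 UMIs, while Psmb11, Ccl25 and Krt8 peak at 2 to 7 UMIs, Psmb11 at 396 CPM in the Tbx1+/+ carrier.

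The first comparison between libraries sets the Tbx1neo2/neo2 carrier against the Tbx1+/+ carrier. With 1 library each, an effect of reduced Tbx1 cannot be told apart from other differences between these libraries. A gene was called where the libraries differed at least 1.5-fold, their Poisson intervals did not overlap and the pair held at least 20 UMIs; no test is possible with 1 library per group. In Krt5+Krt17+ TECs of the Tbx1neo2/neo2 carrier against the Tbx1+/+ carrier, 182 of 13474 genes were called higher (1.35%) and 472 lower (3.50%), against 247 (1.63%) and 628 (4.14%) of 15184 in the other epithelial cells. The 182 became 74 when the CPM of each cell was averaged, with 49 of the same genes, and 93 at a mitochondrial limit of 5%, with 38 of the same genes. Immediate early genes were among those called lower. Atf3, a stress-induced factor, was at 4.04 CPM against 85.9 CPM, a log2 ratio of −4.41 (−5.06 to −3.84), and had a like ratio of −4.27 in the other epithelial cells. Nr4a1, an orphan receptor induced by many signals, was at 11.1 against 52.4 CPM (−2.24), the matricellular gene Cyr61 at 41.0 against 147 CPM (−1.84) and Klf6 at 56.5 against 192 CPM (−1.76). Of 29 immediate early and stress genes, 20 were called lower and 0 higher in the Krt5+Krt17+ TECs, with a median of −0.96, and 19 lower in the other epithelial cells, with a median of −0.71. In Ptprc+ cells Fos was at 89.1 against 299 CPM and Atf3 at 6.36 against 16.8 CPM, so the lower level of these genes was also seen outside the epithelium of this library.

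Some barrier genes were called lower in the Tbx1neo2/neo2 carrier. Of 30 stratified epithelium genes, 9 were called lower and 0 higher with a median of −0.22, where the median over all genes was −0.06; they included Dsg3 (−1.06), the water channel Aqp3 (−0.87), Lypd3 (−0.71) and Ly6d (−0.76). In the other epithelial cells 2 genes of the list were called higher and 1 lower. In the Krt5+Krt17+ TECs the count of lower genes was 3 with a mitochondrial limit of 5%, which left 51 cells in this library, and 1 at a 2-fold limit. Of 17 tight junction genes 5 were called lower and 0 higher with a median of −0.33, Cldn23 (−1.27), Cldn4 (−1.23) and Cldn3 (−1.03) among them, and in the other epithelial cells 2 lower. Cldn3 UMIs were found in 19.6% of thinned Krt5+Krt17+ TECs against 30.6% in the Tbx1+/+ carrier, and Cldn4 UMIs in 12.3% against 28.0%. The secreted epithelial proteins Bpifa1 (53.8 against 251 CPM) and Spink8 (28.4 against 103 CPM), the serpin Serpinb11 (15.97 against 65.9 CPM) and Plac8, a gene also known from blood cells (8.07 against 53.6 CPM), were among the largest drops, although 1 cell held 46.6% of the Bpifa1 UMIs in the Tbx1neo2/neo2 carrier. Of 27 TEC factors, 6 were called lower, Gata3 (−1.51), Klf4, Klf5 (−0.86), Grhl3 (−0.76), Elf5 (−0.75) and Elf3 (−0.61), and 0 higher, beside 5 lower and 1 higher in the other epithelial cells.

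Medullary genes went both ways. Of 15 medullary genes 4 were called higher, among them Fezf2 (1.31), Ccl21a (0.91) and Tnfrsf11a (0.62), and 3 lower, Cldn3, Cldn4 and the cornified envelope gene Ivl (−2.55), with a median of 0.07. Besides Ccl21a, globin genes, Xist and 1 predicted gene, 6 genes at or above 50 CPM were called higher. Krt14 was at 76.0 against 45.5 CPM (0.74), and the serine biosynthesis gene Psph at 50.3 against 29.2 CPM (0.79). The others were Opcml (0.75), Pcolce2 (0.66), Selm (0.63) and Sprr2a3 (1.60), of which a single cell gave 34.2% of the Sprr2a3 UMIs. Krt14 and Sprr2a3 reversed, to −0.16 and −0.08, with the mitochondrial limit of 5%. Mesenchymal markers differed between the same libraries, with 5 of 13 called higher and 2 lower, a sum of 222 against 168 CPM and Col3a1, the most abundant, at 49.6 against 32.6 CPM. Blood markers moved further: 9 of 14 hematopoietic genes were called lower and 0 higher, with a median of −2.54, a sum of 21.5 against 102 CPM and Gzma, the most abundant, at 6.56 against 42.2 CPM. A single Ptprc UMI, which the limits allow, was found in 1 Krt5+Krt17+ TEC of the Tbx1neo2/neo2 carrier and in 46 of the Tbx1+/+ carrier. Of 9 erythroid genes 5 were called higher and 2 lower. The part of these markers in the comparison was not tested.

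The remaining comparisons set the drugs against the Tbx1neo2/neo2 carrier. Both share that library as their control, so values they have in common are not independent. With minoxidil 460 of 12847 genes were called higher (3.58%) and 132 lower (1.03%). The other epithelial cells had 374 higher (2.62%) and 496 lower (3.48%) of 14250. Atf3 was at 99.2 against 4.04 CPM, a log2 ratio of 4.62, beside 4.03 in the other epithelial cells, and 17 of 29 immediate early genes were called higher, with a median of 0.68. Fos, a subunit of AP-1, was at 1049 CPM, where the Tbx1+/+ carrier had 1212 and the Tbx1neo2/neo2 carrier 369 CPM.

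Some interferon and hypoxia genes were called higher with minoxidil in the Krt5+Krt17+ TECs. Of 25 interferon genes 10 were called higher and 0 lower, with a median of 0.51 beside 0.04 over all genes. They included the GTPases Igtp (2.26), Gbp7 (1.75), Iigp1 (1.71) and Gbp2 (1.55), Cxcl10 (1.48) and Irf1 (1.09). The largest was Cxcl9, at 58.4 against 3.20 CPM (4.19), of which 1 cell held 42.3%, and the ubiquitin-like Ubd, at 52.8 against 5.89 CPM (3.16), had 47.8% in 1 cell. Of 25 hypoxia genes 10 were called higher and 0 lower, with a median of 0.51. That count holds Pgk1 (2.32), which was also higher in the other epithelial cells (2.20) and in Ptprc+ cells, at 212 against 49.7 CPM. Vegfa, the angiogenic growth factor, was at 58.6 against 24.9 CPM (1.23), the glucose transporter Slc2a1 at 69.9 against 39.3 CPM (0.83) and the vasodilator peptide Adm at 87.3 against 40.2 CPM (1.12). Mt1 was called higher (0.96), while its ratio in the other epithelial cells was −0.68. In the other epithelial cells 8 interferon genes were called higher and 0 lower, and 5 hypoxia genes higher and 1 lower; the difference between the cell populations was not tested.

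A further set of genes differed by a similar amount in the other epithelial cells of the minoxidil library and was higher in its Ptprc+ cells too. Nme2 was at 75.5 against 6.39 CPM, with a log2 ratio of 3.56 in the Krt5+Krt17+ TECs and 3.39 in the other epithelial cells, and at 96.0 against 8.20 CPM in Ptprc+ cells. The histone gene Hist1h2ap (2.72 and 2.73) and Pgk1 (2.32 and 2.20), which lies on chromosome X, behaved alike. These genes have close copies or pseudogenes among which reads may be split. Eln had a ratio of 4.41, but 94.2% of its UMIs lay in 1 cell, and without that cell it was 0.48 and not called. Apart from globin genes, those called lower at or above 50 CPM were Lgals1 (22.4 against 89.1 CPM, −1.99), the imprinted genes Cdkn1c (50.998 against 100 CPM, −0.98) and Peg3 (37.5 against 70.1 CPM, −0.90), and the syntaxin gene Stx16 (−0.62). Endothelial genes moved with this library: 7 of 9 were called higher and 1 lower, none was at 0, and they summed to 94.9 CPM in its Krt5+Krt17+ TECs against 41.7 CPM, with the most abundant, Egfl7, at 29.6 against 19.0 CPM and the defining Cdh5 at 15.6 against 2.86 CPM. Mesenchymal genes moved the other way, with 9 of 12 called lower and a sum of 65.9 against 222 CPM, and Pdgfra at 0 by the choice of cells. All 7 erythroid genes tested were called lower, with a median of −4.71, Hbb-y at 20.2 against 1306 CPM and Hbb-bs at 49.6 against 836 CPM. Their part in the comparison was not tested.

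With PGE2, 412 of 12634 genes were called higher (3.26%) and 279 lower (2.21%), against 359 (2.50%) and 489 (3.41%) of 14352 in the other epithelial cells. The genes called higher included antigen presentation genes. Of 8 MHC class II genes 7 were called higher and 0 lower, with a median of 0.87, beside −0.01 over all genes. Cd74 was at 1645 against 818 CPM (1.01), H2-Aa at 501.5 against 250.5 CPM (1.001), H2-Eb1 at 539 against 277 CPM (0.96) and H2-Oa, a modulator of peptide loading, at 8.65 against 3.20 CPM (1.44). Of these, Cd74, H2-Aa and H2-Eb1 also had a level in the PGE2 library more than 2 times that of the Tbx1+/+ carrier. In the other epithelial cells 4 of 9 were called higher and 1 lower. At a 2-fold limit 3 of the 8 were called. MHC class I and loading genes followed, with 8 of 14 called higher and a median of 0.64: H2-D1 (1.23), the transporter subunits Tap2 (1.08) and Tap1 (0.86), B2m (1.004) and H2-K1 (0.86), and 3 of 14 in the other epithelial cells. Of 26 interferon genes 12 were called higher and 1 lower, with a median of 0.59, beside 11 higher, 0 lower and a median of 0.57 in the other epithelial cells. Cxcl10 was at 699 against 213 CPM (1.71), with 2.59 in the other epithelial cells, and the ubiquitin-like Isg15 at 51.1 against 16.8 CPM (1.60).

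Some hypoxia genes were called lower with PGE2. Of 25, 8 were called lower and 0 higher, with a median of −0.48. Bnip3, a mitochondrial protein, was at 106, 104, 153 and 53.1 CPM over the 4 libraries, so the minoxidil library was the highest and the PGE2 library the lowest. Slc2a1 was at 53.1, 39.3, 69.9 and 21.2 CPM, and Ndrg1 at 23.1, 22.2, 46.9 and 6.64 CPM, in the same order of the drugs. In the other epithelial cells 1 hypoxia gene was called higher and 1 lower with PGE2. Immediate early genes were again above the shared control, with 18 of 29 called higher, Atf3 at 80.5 against 4.04 CPM (4.32) and Fos at 1220 against 369 CPM (1.72).

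Some medullary and G2 and M phase genes were also called higher in the PGE2 library. Of 16 medullary genes 4 were called higher, among them Fezf2 (1.42), Ccl19 (2.47) and Ccl21a (0.61), and 0 lower. Ccl19 rested on few UMIs, at 1.87 against 0.336 CPM. Ccl21a reached 32.8 UMIs per thinned cell at the 90th percentile, against 20 in the Tbx1neo2/neo2 carrier and 11 in the Tbx1+/+ carrier, while the share of cells with a UMI was 46.4%, 49.1% and 42.4%. The higher sum thus came with more UMIs in the cells at the top rather than with a larger share of positive cells. Ehf, the Ets factor, was at 18.2 against 4.54 CPM (2.003). Of 30 G2 and M phase genes 8 were called higher, with a median of 0.49, for example Mki67 at 336 against 214.5 CPM (0.65), and 0 in the other epithelial cells. That count was 0 at a 2-fold limit, and 20 when the CPM of each cell was averaged. Of 30 S phase genes 0 were called, with a median of −0.04. Histone genes Hist1h3c (2.09) and Hist1h4d (1.81), Klf6 (1.65) and Bpifa1 (1.62) completed the largest ratios, with 55.6% of the Bpifa1 UMIs in 1 cell. On the lower side, Igfbp5, a binding protein of insulin-like growth factors, was at 51.5 against 122 CPM (−1.24), the heparin-binding cytokine Ptn at 419 against 748 CPM (−0.84), and the signalling regulator Rgs4 at 100 against 171 CPM (−0.76). Lgals1 (−1.25), Bnip3 (−0.97), Erdr1 (−0.90), Espn (−0.86) and Itm2a (−0.80) were lower as well. Erdr1 lies on chromosome Y in the annotation and Itm2a on chromosome X, and embryo sex differed between these libraries. Of 10 hematopoietic genes tested 4 were called higher and 0 lower, with a median of 1.53, a sum of 53.1 against 21.5 CPM and Gzma at 20.1 against 6.56 CPM. Of 12 mesenchymal genes 10 were called lower, and the list summed to 67.7 CPM in the Krt5+Krt17+ TECs of this library against 222 CPM, with Col3a1 at 6.64 against 49.6 CPM. Of 5 endothelial genes tested 4 were called lower, with a sum of 14.7 against 41.7 CPM, Egfl7 at 13.1 CPM and Kdr at 0. The part of these markers in the comparison, the MHC and interferon genes included, was not tested.

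**Figure D5:**
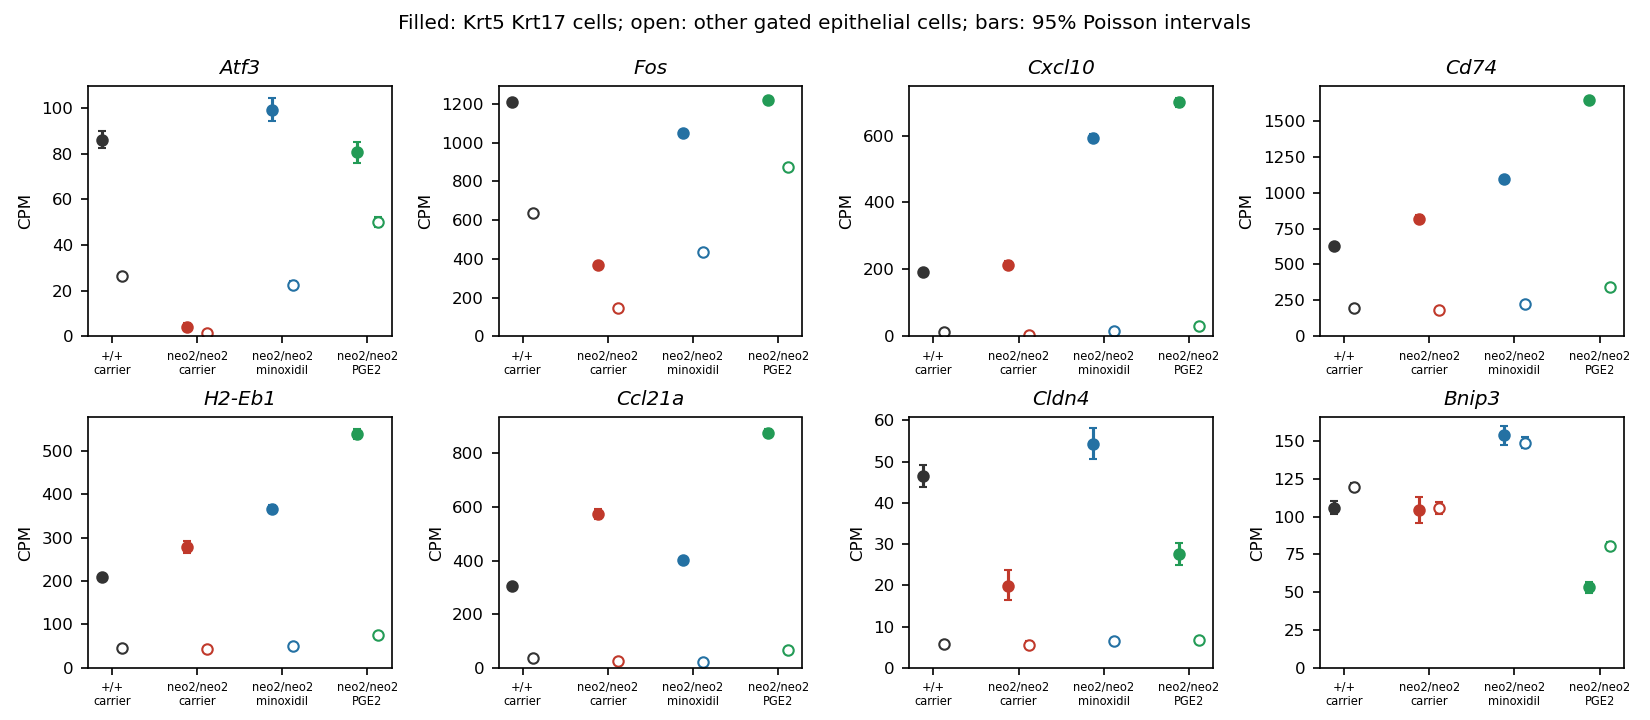
CPM of 8 genes in each library, with filled points for Krt5+Krt17+ TECs, open points for the other epithelial cells and bars for Poisson 95% intervals. Atf3 and Fos are lowest in the Tbx1neo2/neo2 carrier, at 4.04 and 369 CPM, Cd74 and H2-Eb1 are highest with PGE2, at 1645 and 539 CPM, and Bnip3 is lowest with PGE2, at 53.1 CPM.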

How the data were processed

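The authors aligned the reads of each 10x library to mm10 with Cell Ranger 5.0.1 and deposited, per library, UMI counts of every gene in every cell barcode; the counts were used as deposited. The study's own filter removed cells under 200 genes and with very high mitochondrial content. Here Python 3.11.15, numpy 2.4.6, scipy 1.17.1, pandas 2.3.3 and scanpy 1.11.5 (Scrublet scores, within each library) were used for cells and sums, and R 4.3.3 with edgeR 4.0.16 for the test on 8 sums, after a filter of at least 10 UMIs in at least 4 sums; DESeq2 1.42.0 was an alternative. The steps were tested on simulated data. Cells were thinned with a fixed seed.

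Doublets were scored and kept. No deposited cell annotation was used here. The members, gene lists and tests were chosen with earlier results of these data known. Genes named in the text were the 15 largest and 10 smallest called fold changes with the same direction in 4 of 4 libraries and at least 50 CPM in the higher population, and, between libraries, the 8 largest and 8 smallest called log2 ratios with at least 50 CPM in 1 library; Xist, Tsix, 4 Y-linked genes, mitochondrial and predicted genes, symbols with more than 1 entry in the files, genes of the rule and markers of other cell types were left out; other genes of the sex chromosomes were not. Members of the gene lists and the stated markers were named besides. The sequence letters were looked at after the values were seen. Intervals are exact (Clopper-Pearson for shares, Poisson for sums). Coordinates are from GENCODE vM21 (GRCm38) and promoter sequences from RefSeq (GRCm38.p6); 8 of the 15 named higher genes had a window. Alternatives varied the limits, filters, depth and single cells; those on depth of at least 10000 UMIs and on leaving out each gene's highest cell were added after seeing the data. A few genes that these rules would name are not reported here.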

Additional observations from a re-analysis of the deposited data

How the results depend on the processing

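The share of Krt5+Krt17+ TECs moved with most limits: with 3 Krt5 and 1 Krt17 UMIs it was 25.5%, 19.0%, 26.8% and 26.8% in the order of libraries used above, with 10 and 4 UMIs 13.1%, 10.9%, 18.2% and 17.7%, with a mitochondrial limit of 5% 15.9%, 11.3%, 19.5% and 19.3%, and with thinning to 10000 UMIs together with limits of 2 Krt5 and 1 Krt17 UMIs 21.5%, 15.03%, 18.5% and 19.3%. Cells with at least 10000 UMIs under the original limits gave 20.8%, 15.2%, 22.8% and 22.1%. Without cells of high doublet score the shares were 18.5%, 15.03%, 20.4% and 20.5%. The Tbx1neo2/neo2 carrier was lowest in each of these. With a mitochondrial limit of 20% the shares were 18.5%, 14.9%, 22.2% and 21.4%. With only cells under 3 G2 and M phase genes on raw UMIs, 111, 34, 16 and 22 Krt5+Krt17+ TECs, they were 30.5%, 32.1%, 36.4% and 37.3%. There the Tbx1+/+ carrier was lowest. Against the other epithelial cells, the 1322 higher and 451 lower genes became 851 and 267 with thinned cells. With only cells under 3 G2 and M phase genes they became 360 and 142. Fewer UMIs were left in both. Of the genes still tested, 792 of 860 and 291 of 420 higher calls remained, and 212 of 295 and 56 of 90 lower calls. Leaving out 1 library in turn gave 1160 to 1293 higher and 341 to 381 lower genes, DESeq2 1276 and 409, and no filter on low counts 1715 and 589. Of the 25 named genes 23 kept their call under every alternative, and Apoe and Mgp did not. The 25 include Krtdap, Cxcl10, S100a14 and Clu, markers picked with results known, whose calls carry no test. No paired analysis was possible because each condition has 1 library, so no replicate number pairs libraries of different conditions. The block in the test above pairs the populations within a library; without it the counts were 1298 and 375.

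Between libraries, the 182 genes higher in the Tbx1neo2/neo2 carrier became 74 with the mean of CPM over cells, 85 at 2-fold, 117 with at least 100 UMIs, 93 with the mitochondrial limit of 5% and 111 without each gene's highest cell, and the 472 lower became 233 at 2-fold. At the mitochondrial limit 38 of the 182 and 208 of the 472 calls remained, and Sprr2a3 (−0.078) and Krt14 (−0.16) reversed. With minoxidil, 460 higher genes became 250 at 2-fold, and 132 lower became 51 with the mean of CPM, 68 with at least 100 UMIs and 80 at the mitochondrial limit. Of the 460 calls 231 remained with the mean of CPM and 270 at the mitochondrial limit. Of the 132 calls 38 and 39 remained. With PGE2, 412 higher became 205 at 2-fold, and 279 lower became 132 with the mean of CPM, 149 at 2-fold, 162 with at least 100 UMIs and 136 at the mitochondrial limit. Of the 412 calls 269 remained with the mean of CPM and 233 at the mitochondrial limit. Of the 279 calls 114 and 78 remained. Without cells of high doublet score, 427 of the 460 higher and 91 of the 132 lower calls with minoxidil remained. For PGE2 these were 367 of the 412 higher and 203 of the 279 lower calls. Of 42 genes named between libraries 20 kept their call under every alternative. The share of cells with both kinds of transcript was 87.2%, 92.1%, 90.8% and 89.3% without thinning. The cause of each of these moves was not tested. With 1 library per condition, none of the differences between conditions has a replicate check, and precision is set by the 164 Krt5+Krt17+ TECs of the Tbx1neo2/neo2 carrier.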

Other observations

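Signalling genes outside the groups described above were also counted in the test against the other epithelial cells, in which 9.27% of all genes were higher and 3.16% lower. Of 28 ligands and receptors of the EGF, FGF, BMP and PDGF families 6 were higher and 0 lower, with a median of 0.23: the receptors Fgfr3 (3.13), Erbb3 (1.66), Erbb2 (1.38) and Egfr (1.29), the ligand Btc (1.92) and the activin subunit gene Inhba (1.11). Of 25 Wnt pathway genes 4 were higher, the ligands Wnt11 (3.02), Wnt10b (2.35) and Wnt7b (1.90) and the secreted Dkk3 (1.06), and the nuclear effector Lef1 was lower (−1.71), with a median of 0.16. Of 12 Sox genes 5 were higher and 0 lower, with a median of 0.70. Sox9 was at 168, 134, 169 and 132 CPM against 45.0, 53.4, 36.5 and 52.4 CPM (1.73), and Sox5 at 15.6, 13.3, 17.2 and 15.9 CPM against 2.51, 3.56, 2.44 and 3.07 CPM (2.49). Neither was called between the libraries in the Krt5+Krt17+ TECs. Other Sox genes, all under 10 CPM, were: 2 of 10 were lower in the Tbx1neo2/neo2 carrier than in the Tbx1+/+ carrier, Sox2 and Sox7, and 4 of 10 were higher with minoxidil than in the Tbx1neo2/neo2 carrier, Sox17, Sox18, Sox7 and Sox21, where 0 were higher and 2 lower in the other epithelial cells. With PGE2 Sox13 was lower, at 5.05 against 8.57 CPM. Sox17 was at 3.42 against 0 CPM and Sox18 at 4.47 against 0.673 CPM with minoxidil, in the library in which 7 of 9 endothelial genes were called higher; the part of endothelial transcripts was not tested.

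Inhibitors of the cell cycle were split. Cdkn1a, a target of p53, was at 123, 73.8, 98.6 and 63.7 CPM against 28.5, 24.2, 23.5 and 14.7 CPM (2.01), and Cdkn2b at 7.27, 6.05, 6.57 and 8.99 CPM against at most 0.936 CPM (3.31), while the imprinted Cdkn1c was lower. Of the 14 genes of that list 3 were higher and 1 lower, with a median of 0.05. Among 26 hypoxia genes 6 were higher in the Krt5+Krt17+ TECs, with a median of 0.10. Adm was at 35.5, 40.2, 87.3 and 58.4 CPM against at most 2.46 CPM (5.07). The small heat shock gene Hspb1 was at 810, 424, 444 and 299 CPM over the libraries.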
